A study of Mus musculus with 18 samples.

Results

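Clone 42 of the mouse pancreatic tumour line 2838, labelled an Mcu CRISPR knockout, was compared with wild-type clone 15 and with wild-type clone 22 of the same line, each as a contrast of its own. A gene was read as changed only where both contrasts passed the test with the same sign. The comparison took in 9 of the 18 libraries of the series, 3 per clone. It covered 11640 of the 35642 gene symbols in the deposited table, those at 1 TPM or more in at least 3 of the 9 libraries. TPM is a level per transcript length, scaled to the same total in every library. The design asks what differs between isogenic pancreatic tumour cells that do or do not express the gene of the mitochondrial calcium uniporter. The lines come from tumours of KPCY mice, whose alleles include Trp53 LSL-R172H/+, Pdx1-Cre and R26LSL-Yfp/LSL-Yfp. Pdx1-driven Cre acts in pancreatic cells, where it switches on mutant p53 and a yellow fluorescent protein among other alleles, and the controls carry these alleles too. Lines were made with or without a floxed Mcu allele, and the labels do not say which holds for line 2838. Clones 15 and 22 are described as wild type for Mcu with an empty vector, while the label of clone 42 names no vector. All 9 libraries were made from polyA RNA of untreated cells and belonged to the same labelled batch. Each group is 1 clone, so an effect of the knockout and a difference between clones cannot be told apart. The labels do not say that the 3 libraries of a clone came from separate cultures, so p-values may measure technical spread only. A second clone with the knockout label, clone 17, was set beside clone 42 for named genes.

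Mcu encodes the pore of the mitochondrial calcium uniporter, the channel through which calcium crosses the inner mitochondrial membrane into the matrix, where it stimulates dehydrogenases of the citric acid cycle. The pore works with the small essential subunit Smdt1 (EMRE), calcium-sensing gatekeepers such as Micu2 and Micu3, the pore subunit Mcub, which lowers conductance, and the regulator Mcur1. Pancreatic ductal tumours are commonly sorted into a classical state, rich in epithelial and mucous genes, and a basal-like or mesenchymal state.

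The 9 libraries summed to between 998353 and 998961 TPM, and TPM keeps no record of read depth. Replicate 3 of wild-type clone 22 stood apart, with 10760 genes at 1 TPM or more against 11207 to 11507 in the other 8 libraries. Relative to the other libraries of its clone, its median log2 level differed by 0.38 for transcripts of up to 1000 bases and by -1.38 for those longer than 6000 bases. The median log2 difference of clone 42 over all genes was 0.00082 against clone 15 and 0.15 against clone 22, and the latter was -0.037 without that library and 0.0016 with median-of-ratios scaling. Differences against clone 22 are therefore to be read relative to that shift. Of the epithelial markers, Krt8, Krt18, Krt19, Krt7, Cdh1 and Muc1 were expressed in all 9 libraries, while Epcam and Cldn4 stayed below 1 TPM in each. Markers of other cells were low. Of 15 immune markers 8 were at 0 in all libraries of the line, Cd3e and Adgre1 among them. Summed, they ranged from 2.98 to 4.33 TPM in clone 15, 4.44 to 6.41 in clone 22 and 5.80 to 6.26 in clone 42. Of 14 fibroblast markers 7 were at 0, including Col1a2, Dcn and Lum, with a sum of at most 0.992 TPM. The acinar list summed to 22.5 to 29.3 TPM in clone 15, 16.7 to 25.01 in clone 22 and 9.55 to 12.7 in clone 42. Nearly all of it was Cela1, and 10 of 16 genes were at 0.

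Mcu RNA was lower in clone 42 but not absent. It was at 68.4, 81.2 and 75.98 TPM in clone 15, 94.4, 96.3 and 59.3 in clone 22 and 12.3, 10.5 and 11.5 in clone 42. Every clone 42 library lay below every wild-type library. Mcu (chromosome 10, 59446984 to 59616692, minus strand, mm10) fell with log2 differences of -2.62 and -2.73 (SE 0.20, limma adjusted p = 0.000191 and 0.000142). In each such pair the first value is against clone 15 and the second against clone 22, and the SE holds for both. In bulk RNA, fewer cells with a transcript and less of it per cell cannot be told apart. The clone labelled knockout 17 went against its label at the RNA level, with Mcu at 120.1, 122 and 113 TPM, above all 6 wild-type libraries. Clone 42 minus that clone gave -3.27 (SE 0.17, limma adjusted p = 1.50e-06) in log2. A CRISPR edit need not lower the RNA of its target, and no protein level was analysed here.

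The other 6 genes of the complex did not pass the test against both wild-type clones. Mcub was at 20.1, 31.5 and 23.6 TPM in clone 15, 38.0, 38.1 and 42.6 in clone 22 and 23.5, 31.8 and 24.98 in clone 42. Clone 42 overlapped clone 15 and lay below clone 22, and Mcub had log2 differences of 0.10 and -0.56 (SE 0.19, limma adjusted p = 0.846 and 0.145). The gatekeeper Micu2 had mean levels of 25.8 TPM in clone 15, 45.6 in clone 22 and 37.3 in clone 42, and the essential subunit Smdt1 had mean levels of 149.95 TPM in clone 15, 199.7 in clone 22 and 169 in clone 42. In both of these genes clone 42 lay between the wild-type clones. Mcur1 had mean levels of 19.4 TPM in clone 15, 19.2 in clone 22 and 26.1 in clone 42, and Micu3 was the lowest of the complex with mean levels of 8.87 TPM in clone 15, 7.75 in clone 22 and 8.23 in clone 42. Of 12 other mitochondrial calcium genes, such as Ghitm and Vdac2, 0 passed the limma test against both clones. The same held for 19 calcium genes of the endoplasmic reticulum and plasma membrane, such as Calr. At an unadjusted p under 0.05 against each, 1 of the former was higher and 0 of the latter differed. Over all 11640 genes, 736 were higher and 598 lower at that unadjusted p. On omitting replicate 3 of clone 22, 1 of the former rose and 1 of the latter fell, beside 5.87% of all genes higher and 9.46% lower.

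**Figure D1:**
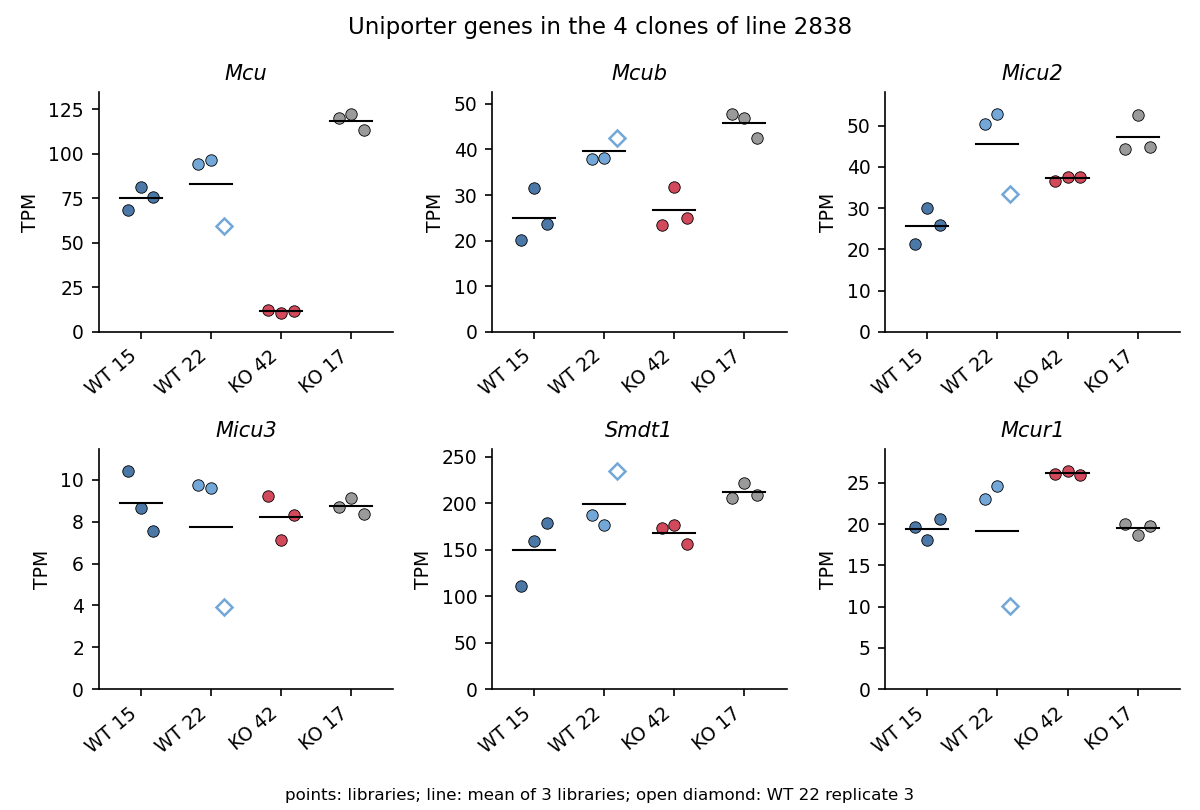
Levels in TPM on a linear axis of 6 genes of the uniporter complex in 4 clones of line 2838, where points are libraries, lines are means and the open diamond is replicate 3 of wild-type clone 22. Mcu lies between 10.5 and 12.3 TPM in clone 42 and at 59.3 TPM or more in every other library, while the clone 42 means of Mcub, Micu2, Micu3 and Smdt1 lie between those of the wild-type clones.

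Clone 42 had 218 genes higher (1.87%) and 218 lower (1.87%) than both wild-type clones, 3.75% of the genes tested with limma at an adjusted p under 0.05. Against clone 15 alone 405 genes (3.48%) were higher and 456 (3.92%) lower, 7.4% in all. Against clone 22 alone 377 (3.24%) were higher and 317 (2.72%) lower, 5.96% in all. The wild-type clones differed from each other in 85 genes (0.73%), and in 1252 at an unadjusted p under 0.05. For all 436 genes the 3 libraries of clone 42 lay outside the range of the 6 wild-type libraries, and over all genes 13.4% lay wholly above and 7.14% wholly below. A log2 change of at least 1 against each clone was seen in 118 of the higher and 123 of the lower genes. With replicate 3 of clone 22 left out the counts were 681 (5.87%) higher and 1097 (9.46%) lower, which included all 218 of the higher genes and 217 of the lower ones. Leaving out other single libraries moved the total of 436 to 244 and 259 without replicates 2 and 3 of clone 15, to 240 without replicate 2 of clone 22, and to 132, 136 and 122 without replicates 1, 2 and 3 of clone 42. Scaling moved the split between directions. Median-of-ratios scaling gave 270 genes (2.33%) above both clones and 337 (2.9%) below. Quantile normalization gave 359 (3.08%) and 445 (3.82%). Centring each chromosome, a setting chosen after the data were seen, gave 180 (1.55%) and 278 (2.39%). Against clone 22 alone these settings gave 473 (4.07%) and 568 (4.89%), 574 (4.93%) and 719 (6.18%), and 286 (2.46%) and 411 (3.53%). Against the clone labelled knockout 17, clone 42 was higher for 971 (8.23%) and lower for 1060 (8.99%) of 11795 genes.

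**Figure D2:**
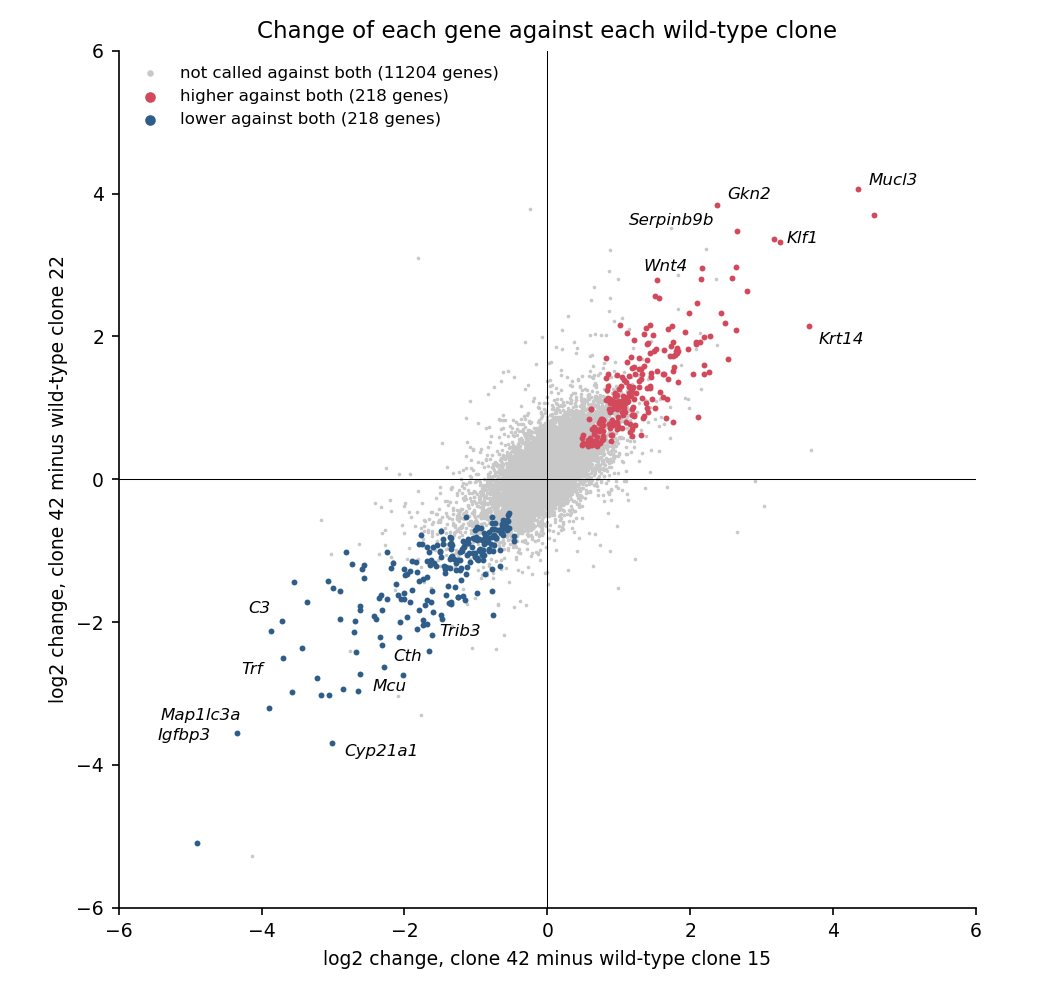
Each point is a gene, with its log2 difference of clone 42 from wild-type clone 15 on the x axis and from wild-type clone 22 on the y axis. The 218 genes higher than both clones are red, the 218 lower than both are blue and the 11204 others are grey, and Mcu is among the lower genes at -2.62 and -2.73.

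Several genes of the integrated stress response fell in clone 42. This response runs through Atf4, a transcription factor made when translation slows under amino acid shortage, mitochondrial stress or misfolded protein, and Atf4 raises genes of amino acid uptake, serine and cysteine synthesis and tRNA charging. Of 27 listed genes tested, 7 fell against both wild-type clones and 0 rose, beside 1.87% lower over all genes. The median log2 difference of the list was -0.65 against clone 15 and -0.81 against clone 22. Values above 0 were found for 2 of 27 genes against clone 15 and 1 of 27 against clone 22, beside 5828 and 7452 of all 11640. The 7 were Atf4, Ddit3, Trib3, Chac1, Phgdh, Gdf15 and Cth. Without replicate 3 of clone 22, 15 fell, beside 9.46% of all genes lower. The count was 7 with median-of-ratios scaling, 12 after quantile normalization and 6 after centring each chromosome.

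Atf4 itself was at 405, 515 and 378 TPM in clone 15, 518, 579 and 534 in clone 22 and 257, 280.2 and 279 in clone 42. All clone 42 libraries were below all wild-type libraries, and Atf4 fell with log2 differences of -0.65 and -0.99 (SE 0.13, limma adjusted p = 0.0184 and 0.00345). Ddit3 (CHOP), a transcription factor of prolonged stress, was at 24.6, 53.6 and 22.7 TPM in clone 15, 24.6, 38.2 and 40.8 in clone 22 and 9.98, 13.3 and 10.9 in clone 42. Replicate 2 of clone 15 was far above the other libraries of that clone, and Ddit3 fell with log2 differences of -1.38 and -1.499 (SE 0.33, limma adjusted p = 0.0346 and 0.0299). Trib3, a pseudokinase that damps Atf4 signalling (chromosome 2, 152337422 to 152344032, minus strand), was at 50.7, 111 and 49.3 TPM in clone 15, 73.2, 102 and 76.2 in clone 22 and 17.98, 21.7 and 19.2 in clone 42. Trib3 fell with log2 differences of -1.69 and -2.03 (SE 0.29, limma adjusted p = 0.00857 and 0.00488). Replicate 2 was the highest Trib3 library of every clone, that labelled knockout 17 included, and the groups did not overlap. The same order of replicates was seen in Chac1 and Cth, and its cause was not tested. The call of a gene depends on the larger of its adjusted p-values against the 2 clones. The Atf4 call was lost without replicate 2 of wild-type clone 15 or without any 1 library of clone 42 (larger adjusted p up to 0.101). The Ddit3 call was lost without replicate 1 or 2 of wild-type clone 15, without replicate 2 of wild-type clone 22 or without any 1 library of clone 42 (larger adjusted p up to 0.14). Both calls were also lost with median-of-ratios scaling and after centring each chromosome. The Trib3 call held without any 1 library.

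Among the enzymes, Cth makes cysteine from cystathionine (chromosome 3, 157894248 to 157925077, minus strand). It was at 62.02, 137 and 76.7 TPM in clone 15, 74.4, 118 and 75.6 in clone 22 and 15.9, 18.8 and 15.7 in clone 42. Its highest clone 42 library lay below its lowest wild-type library, and Cth fell with log2 differences of -2.31 and -2.31 (SE 0.29, limma adjusted p = 0.00181 and 0.00253). Phgdh, the first enzyme of serine synthesis, was at 686, 769.8 and 642 TPM in clone 15, 717, 794 and 743 in clone 22 and 419.6, 456 and 399 in clone 42. Phgdh fell with log2 differences of -0.72 and -0.82 (SE 0.11, limma adjusted p = 0.0056 and 0.00371), again without overlap, and this call was lost with median-of-ratios scaling and after centring each chromosome. Chac1, which breaks down glutathione, was at 34.6, 57.3 and 33.3 TPM in clone 15, 48.6, 65.3 and 49.3 in clone 22 and 14.8, 17.8 and 13.8 in clone 42. Chac1 fell with log2 differences of -1.34 and -1.75 (SE 0.23, limma adjusted p = 0.00811 and 0.00333), and the call was lost without replicate 3 of clone 42 (larger adjusted p up to 0.0505). Gdf15, a secreted stress cytokine (chromosome 8, 70629393 to 70632456, minus strand), was at 10.1, 13.1 and 9.04 TPM in clone 15, 11.97, 13.9 and 17.98 in clone 22 and 2.95, 2.62 and 3.94 in clone 42. Gdf15 fell with log2 differences of -1.49 and -1.899 (SE 0.23, limma adjusted p = 0.00442 and 0.00205). The list did not move as a block. Psat1, the next enzyme of serine synthesis after Phgdh, was at 462, 373 and 329.7 TPM in clone 15, 429.9, 403 and 366 in clone 22 and 422, 440.04 and 412 in clone 42. Its groups overlapped, with log2 differences of 0.14 and 0.091 (SE 0.14, limma adjusted p = 0.65 and 0.727). The asparaginyl-tRNA synthetase gene Nars had mean levels of 342 TPM in clone 15, 376 in clone 22 and 331 in clone 42, with log2 differences of -0.042 and -0.16.

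The clone labelled knockout 17 lay on the other side of the wild-type clones in all 7 genes that fell. Its Atf4 was at 801, 783 and 788 TPM, its Ddit3 at 86.8, 103 and 79.2 TPM, its Trib3 at 187, 198 and 168 TPM and its Cth at 177, 193 and 174 TPM. In each of the 7 genes all 3 of its libraries were above all 6 wild-type libraries. The share of all genes tested with that clone wholly above the wild-type libraries was not taken. The log2 difference of clone 42 from it was -1.54 (SE 0.11, limma adjusted p = 1.11e-05) for Atf4. It was -2.805 (SE 0.20, limma adjusted p = 9.74e-06) for Chac1 and -3.36 (SE 0.26, limma adjusted p = 1.27e-05) for Cth. Of the 27 genes, 25 were lower in clone 42 than in that clone and 0 higher, beside 8.99% of all genes lower. The same libraries of clone 42 enter this contrast and those with the wild-type clones.

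**Figure D3:**
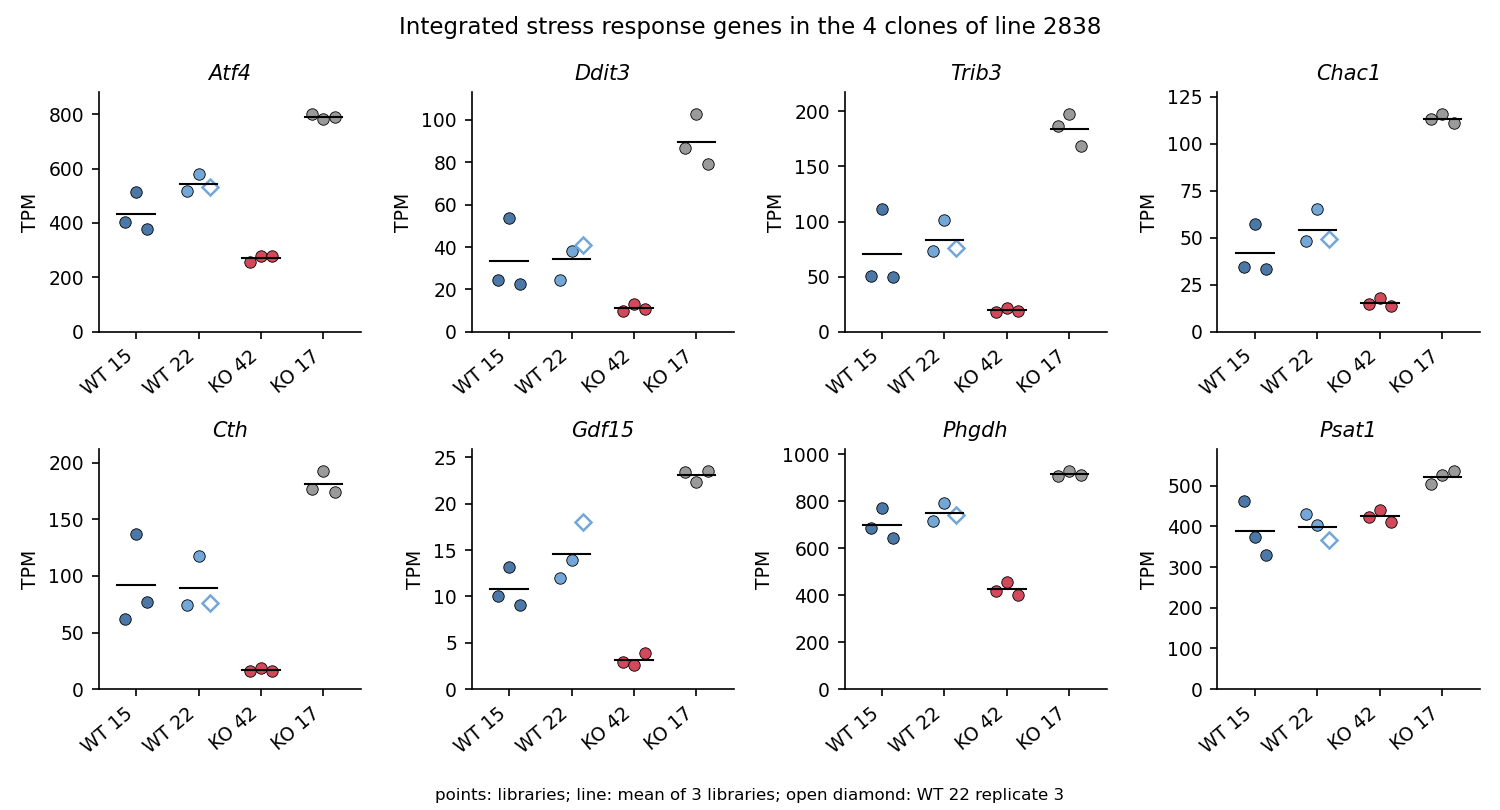
Levels in TPM on a linear axis of 8 genes of the integrated stress response in 4 clones of line 2838, where points are libraries, lines are means and the open diamond is replicate 3 of wild-type clone 22. Clone 42 is the lowest clone for Atf4, Ddit3, Trib3, Chac1, Cth, Gdf15 and Phgdh and overlaps the wild-type clones for Psat1, and the clone labelled knockout 17 is the highest in all 8.

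Atf4 and its partners bind a composite C/EBP-ATF element, and the promoters shown are those of listed genes that hold its letters before the start and fell with all 9 libraries or without replicate 3 of clone 22. The letters TGATGNAA were searched on either strand in the window from 250 bases before to 50 bases after each RefSeq gene start (GRCm38.p6), a motif added after the data were seen. They occur in 2.20% of the 9087 promoters of tested genes and in 7 of 22 of the listed genes with a promoter (31.8%). Of these 7, Atf3 and Gars did not pass in either set of libraries, and 1 more has its match outside the stretch before the start. Of the lower genes 10 of 168 hold them (5.95%), and of the higher genes 0 of 165. Capitals mark the match in the following stretches, written 5′ to 3′ on the strand of the gene and all ending before the start. Chac1 fell in the comparison of all 9 libraries, while Asns, Slc7a11 and Aars passed against both clones without replicate 3 of clone 22 but not with all 9 libraries.
Chac1, chr2:119350993-119351112, plus strand: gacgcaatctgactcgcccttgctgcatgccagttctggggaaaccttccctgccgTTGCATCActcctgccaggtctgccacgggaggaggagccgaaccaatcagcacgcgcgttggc
Asns, chr6:7693210-7693329, minus strand: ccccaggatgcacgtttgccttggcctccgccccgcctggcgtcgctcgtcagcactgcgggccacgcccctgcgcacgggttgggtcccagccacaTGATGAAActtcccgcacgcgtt
Slc7a11, chr3:50443616-50443735, minus strand: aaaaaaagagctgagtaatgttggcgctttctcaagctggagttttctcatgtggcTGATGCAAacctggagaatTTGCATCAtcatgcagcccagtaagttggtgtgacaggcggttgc
Aars, chr8:111033674-111033793, plus strand: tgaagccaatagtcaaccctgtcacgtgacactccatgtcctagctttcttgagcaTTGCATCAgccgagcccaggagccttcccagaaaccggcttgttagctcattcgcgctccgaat
A match is a run of letters and not a measured site. The matches begin 193 bases before the start in Chac1, 23 before in Asns, 66 and 47 before in Slc7a11, and 112 before in Aars.

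The genes with these promoters had the following levels. Asns, asparagine synthetase, was at 292, 313 and 235 TPM in clone 15, 323, 343 and 271 in clone 22 and 189, 222 and 194 in clone 42, with log2 differences of -0.46 and -0.62 (SE 0.15, limma adjusted p = 0.103 and 0.0417). Slc7a11, the cystine importer, was at 30.1, 37.9 and 25.6 TPM in clone 15, 38.2, 42.1 and 9.47 in clone 22 and 11.2, 11.3 and 8.32 in clone 42. The low wild-type value is replicate 3 of clone 22. Slc7a11 had log2 differences of -1.505 and -1.22 (SE 0.47, limma adjusted p = 0.098 and 0.183), and without that library the differences were -1.505 and -1.88. The alanyl-tRNA synthetase gene Aars was at 99.4, 131 and 112 TPM in clone 15, 159, 166 and 99.9 in clone 22 and 79.7, 82.4 and 75.9 in clone 42, with log2 differences of -0.51 and -0.80 (SE 0.20, limma adjusted p = 0.183 and 0.0498). All clone 42 libraries of Asns and Aars were below all wild-type libraries, while in Slc7a11 the low library of clone 22 overlapped clone 42.

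Large falls outside that response were seen in Igfbp3, Map1lc3a and Cldn6. Igfbp3, a carrier of insulin-like growth factors (chromosome 11, 7206086 to 7213923, minus strand), was at 43.7, 54.2 and 44.4 TPM in clone 15, 29.4, 32.1 and 20.7 in clone 22 and 1.12, 1.23 and 1.83 in clone 42. Igfbp3 fell with log2 differences of -4.35 and -3.56 (SE 0.22, limma adjusted p = 2.41e-05 and 4.77e-05), while the clone labelled knockout 17 was at 30.4, 31.9 and 27.9 TPM. Map1lc3a, an LC3 protein of the autophagosome membrane (chromosome 2, 155276297 to 155278073, plus strand), was at 20.4, 35.4 and 32.4 TPM in clone 15, 14.6, 16.4 and 21.4 in clone 22 and 1.15, 0.898 and 0.921 in clone 42. Map1lc3a fell with log2 differences of -3.896 and -3.198 (SE 0.24, limma adjusted p = 6.02e-05 and 0.000195). Cldn6, a claudin of tight junctions (chromosome 17, 23679249 to 23682446, plus strand), was at 108, 124 and 135 TPM in clone 15, 89.7, 90.2 and 88.5 in clone 22 and 9.86, 13.3 and 13.5 in clone 42. Cldn6 fell with log2 differences of -3.23 and -2.79 (SE 0.16, limma adjusted p = 2.41e-05 and 3.39e-05), and all 3 libraries of the clone labelled knockout 17 were within 82.4 to 87.0 TPM. These 3 calls held without any 1 library.

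Further falls had a similar size. Echdc2, a protein of the enoyl-CoA hydratase family, fell with log2 differences of -3.05 and -3.02. The G protein subunit Gnb4 fell with log2 differences of -3.17 and -3.01, and the secreted serine protease Htra1 fell with log2 differences of -2.85 and -2.93. Enah, an actin regulator, was at 22.7, 22.6 and 26.9 TPM in clone 15, 21.9, 25.3 and 6.62 in clone 22 and 0.972, 1.19 and 1.16 in clone 42. Replicate 3 of clone 22 was again low, and Enah fell with log2 differences of -3.57 and -2.98. The cap-binding protein gene Eif4e3 was at 5.61, 6.88 and 7.07 TPM in clone 15, 5.95, 6.44 and 3.73 in clone 22 and 0.03697, 0.517 and 0.0313 in clone 42, and Eif4e3 fell with log2 differences of -2.67 and -2.41 (SE 0.25, limma adjusted p = 0.000428 and 0.000991). It was on the other side of the wild-type range in the clone labelled knockout 17, at 9.46, 11.4 and 9.47 TPM. Cyp21a1, a steroid hydroxylase gene with a near-identical pseudogene copy beside it, fell with log2 differences of -3.01 and -3.69, and its level is uncertain for that reason.

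Genes of several plasma proteins that the liver and some epithelial tumours secrete fell in clone 42. Of 17 complement and acute phase genes tested, 7 fell and 1 rose, beside 1.87% of all genes in each direction, with median log2 differences of -1.19 and -0.83. On omitting replicate 3 of clone 22, 9 fell and 1 rose, beside 9.46% of all genes lower and 5.87% higher. Under each of the 3 other scalings 8 fell and 1 rose. Trf, the iron carrier transferrin (chromosome 9, 103204001 to 103230444, minus strand), was at 241, 272 and 324 TPM in clone 15, 95.8, 112 and 159 in clone 22 and 23.5, 15.996 and 22.4 in clone 42. Trf fell with log2 differences of -3.702 and -2.495 (SE 0.22, limma adjusted p = 4.45e-05 and 0.000417). Cp, the copper protein ceruloplasmin, was at 251, 257 and 280.1 TPM in clone 15, 193, 193 and 113 in clone 22 and 54.2, 50.3 and 47.1 in clone 42, and Cp fell with log2 differences of -2.36 and -1.66 (SE 0.20, limma adjusted p = 0.000336 and 0.00215). Hp, haptoglobin, which binds free haemoglobin (chromosome 8, 109575128 to 109579172, minus strand), was at 7.64, 6.41 and 9.59 TPM in clone 15, 8.42, 11.9 and 9.77 in clone 22 and 0.347, 0.449 and 0.4098 in clone 42. Hp fell with log2 differences of -2.65 and -2.96 (SE 0.21, limma adjusted p = 0.000212 and 0.000129). The groups did not overlap in any of these 3 genes, and their calls held without any 1 library.

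C3, the central complement protein (chromosome 17, 57203970 to 57228136, minus strand), was at 41.7, 32.7 and 49.3 TPM in clone 15, 13.6, 14.8 and 7.56 in clone 22 and 2.53, 2.26 and 1.75 in clone 42. C3 fell with log2 differences of -3.72 and -1.99 (SE 0.27, limma adjusted p = 0.000167 and 0.00345), and the wild-type clones themselves stood apart, with clone 15 above clone 22. The same order of clone 15, clone 22 and clone 42 was seen in the vitamin D carrier Gc, in the complement protease Cfi and in the siderophore binder Lcn2. Gc was at 10.6, 9.304 and 10.6 TPM in clone 15, 2.69, 3.82 and 1.58 in clone 22 and 0.0531, 0.261 and 0.793 in clone 42. Gc fell with log2 differences of -3.07 and -1.42, a call lost without replicate 1 or 2 of wild-type clone 22 or without replicate 1 or 2 of clone 42 (larger adjusted p up to 0.109). Cfi was at 10.4, 10.6 and 12.8 TPM in clone 15, 3.42, 4.24 and 2.15 in clone 22 and 0.536, 1.24 and 0.807 in clone 42. Cfi fell with log2 differences of -2.74 and -1.18, a call lost without replicate 1 or 2 of wild-type clone 22 or without any 1 library of clone 42 (larger adjusted p up to 0.127). Lcn2 was at 35.7, 32.2 and 29.1 TPM in clone 15, 5.56, 10.5 and 14.9 in clone 22 and 2.86, 1.06 and 3.18 in clone 42. Lcn2 fell with log2 differences of -3.37 and -1.72, a call lost without replicate 2 or 3 of wild-type clone 15, without replicate 2 of wild-type clone 22 or without any 1 library of clone 42 (larger adjusted p up to 0.107). In these 3 genes clone 22 thus lay between the others. The riser was Cd55, a membrane protein that shields cells from complement, at 11.5, 12.8 and 11.8 TPM in clone 15, 10.9, 9.81 and 7.78 in clone 22 and 35.8, 31.6 and 36.3 in clone 42. Cd55 rose with log2 differences of 1.44 and 1.77 (SE 0.17, limma adjusted p = 0.00121 and 0.000696). Clu, clusterin, the most abundant of the list, had mean levels of 4599 TPM in clone 15, 3236 in clone 22 and 3373 in clone 42 and log2 differences of -0.44 and 0.062. The clone labelled knockout 17 also lay below all 6 wild-type libraries in Trf, Cp, C3 and Hp and above them in Cd55, with Trf at 37.3, 31.6 and 39.4 TPM and Cd55 at 30.9, 36.3 and 32.9 TPM. In Cfi that clone was at 2.73, 2.14 and 2.18 TPM and overlapped replicate 3 of wild-type clone 22.

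Several mucous genes of the stomach lining, which pancreatic tumours of the classical state also express, rose in clone 42. Of 12 tested, 5 rose and 0 fell, beside 1.87% of all genes higher, with median log2 differences of 1.201 and 0.67. With replicate 3 of clone 22 left out, 6 rose and 1 fell, beside 5.87% of all genes higher and 9.46% lower. The count was 5 up and 1 down after quantile normalization, and 3 up and 0 down with median-of-ratios scaling and after centring each chromosome. Mucl3, a mucin-like protein and the largest rise by the smaller of its differences (chromosome 17, 35635752 to 35643695, minus strand), was at 22.9, 18.7 and 26.9 TPM in clone 15, 36.8, 30.2 and 19.3 in clone 22 and 505, 456 and 479.6 in clone 42. Mucl3 rose with log2 differences of 4.35 and 4.06 (SE 0.23, limma adjusted p = 2.72e-05 and 3.39e-05). The clone labelled knockout 17 was at 99.99, 102 and 95.6 TPM, between the wild-type clones and clone 42. Gkn2, a gastrokine of gastric surface cells (chromosome 6, 87373357 to 87379497, plus strand), was at 9.89, 4.06 and 9.84 TPM in clone 15, 2.55, 1.596 and 2.12 in clone 22 and 45.03, 37.3 and 46.7 in clone 42, and Gkn2 rose with log2 differences of 2.38 and 3.84 (SE 0.30, limma adjusted p = 0.00192 and 0.000241). Its relative Gkn1 was at 0.892, 0.766 and 1.17 TPM in clone 15, 0.301, 0.258 and 0.429 in clone 22 and 4.29, 4.28 and 4.57 in clone 42, and Gkn1 rose with log2 differences of 1.47 and 2.02 (SE 0.17, limma adjusted p = 0.00118 and 0.000351). The calls of Mucl3, Gkn1 and Gkn2 held without any 1 library.

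The trefoil peptide Tff1 was at 155, 181 and 246 TPM in clone 15, 212, 199.9 and 326 in clone 22 and 434, 420.2 and 478 in clone 42. Tff1 rose with log2 differences of 1.21 and 0.88 (SE 0.22, limma adjusted p = 0.00997 and 0.0477). Its call was lost without replicate 2 of wild-type clone 15, without replicate 1 or 2 of wild-type clone 22 or without any 1 library of clone 42 (larger adjusted p up to 0.19). The aspartic protease Ctse (cathepsin E) was at 107, 89.8 and 107 TPM in clone 15, 169, 169 and 122 in clone 22 and 232, 231 and 229 in clone 42. Ctse rose with log2 differences of 1.19 and 0.60 (SE 0.15, limma adjusted p = 0.00189 and 0.0497). Its call was lost without any 1 library of wild-type clone 15, without replicate 1 or 2 of wild-type clone 22 or without any 1 library of clone 42 (larger adjusted p up to 0.186). Tff2, another trefoil peptide, was at 134, 105 and 115 TPM in clone 15, 23.7, 26.9 and 46.8 in clone 22 and 152, 116 and 139.5 in clone 42. Clone 42 overlapped clone 15 and lay above clone 22. Tff2 had log2 differences of 0.20 and 2.09 (SE 0.24, limma adjusted p = 0.728 and 0.00175). Muc1, a membrane mucin, had mean levels of 394 TPM in clone 15, 557 in clone 22 and 543 in clone 42.

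In the list of 20 genes of the classical subtype 5 rose and 0 fell, beside 1.87% of all genes in each direction, with median log2 differences of 0.17 and 0.36. Without replicate 3 of clone 22, 5 of the 19 genes then tested rose and 1 fell, beside 5.87% of all genes higher and 9.46% lower. Quantile normalization also gave 5 up and 1 down, where 3.08% of all genes rose and 3.82% fell. With median-of-ratios scaling and after centring each chromosome the count was 1 up and 0 down. The 5 were Tff1 and Ctse of the mucous list, Lgals4, Plac8 and Tspan8. Lgals4, a galectin of gut epithelium, was at 33.6, 32.3 and 47.8 TPM in clone 15, 56.1, 52.9 and 80.3 in clone 22 and 181, 174 and 169 in clone 42. Lgals4 rose with log2 differences of 2.199 and 1.48 (SE 0.20, limma adjusted p = 0.00039 and 0.00342), a call that held without any 1 library. Plac8 was at 1153, 1177 and 1292 TPM in clone 15, 1329, 1287 and 1675 in clone 22 and 2076, 1968 and 2026 in clone 42, and Plac8 rose with log2 differences of 0.75 and 0.51 (SE 0.13, limma adjusted p = 0.00763 and 0.0492). The tetraspanin Tspan8 was at 664, 609.6 and 629 TPM in clone 15, 639, 626 and 629 in clone 22 and 907, 902 and 892 in clone 42, a small difference between tight groups, and Tspan8 rose with log2 differences of 0.50 and 0.51 (SE 0.094, limma adjusted p = 0.0121 and 0.0153). The Plac8 call was lost without any 1 library of wild-type clone 15, without replicate 1 or 2 of wild-type clone 22 or without any 1 library of clone 42 (larger adjusted p up to 0.209). The Tspan8 call was lost without replicate 2 or 3 of wild-type clone 15, without replicate 2 of wild-type clone 22 or without any 1 library of clone 42 (larger adjusted p up to 0.103). Hnf4a, a transcription factor that marks the classical state, had mean levels of 444 TPM in clone 15, 397 in clone 22 and 321 in clone 42, with log2 differences of -0.43 and 0.066 (SE 0.58, limma adjusted p = 0.764 and 0.96).

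**Figure D4:**
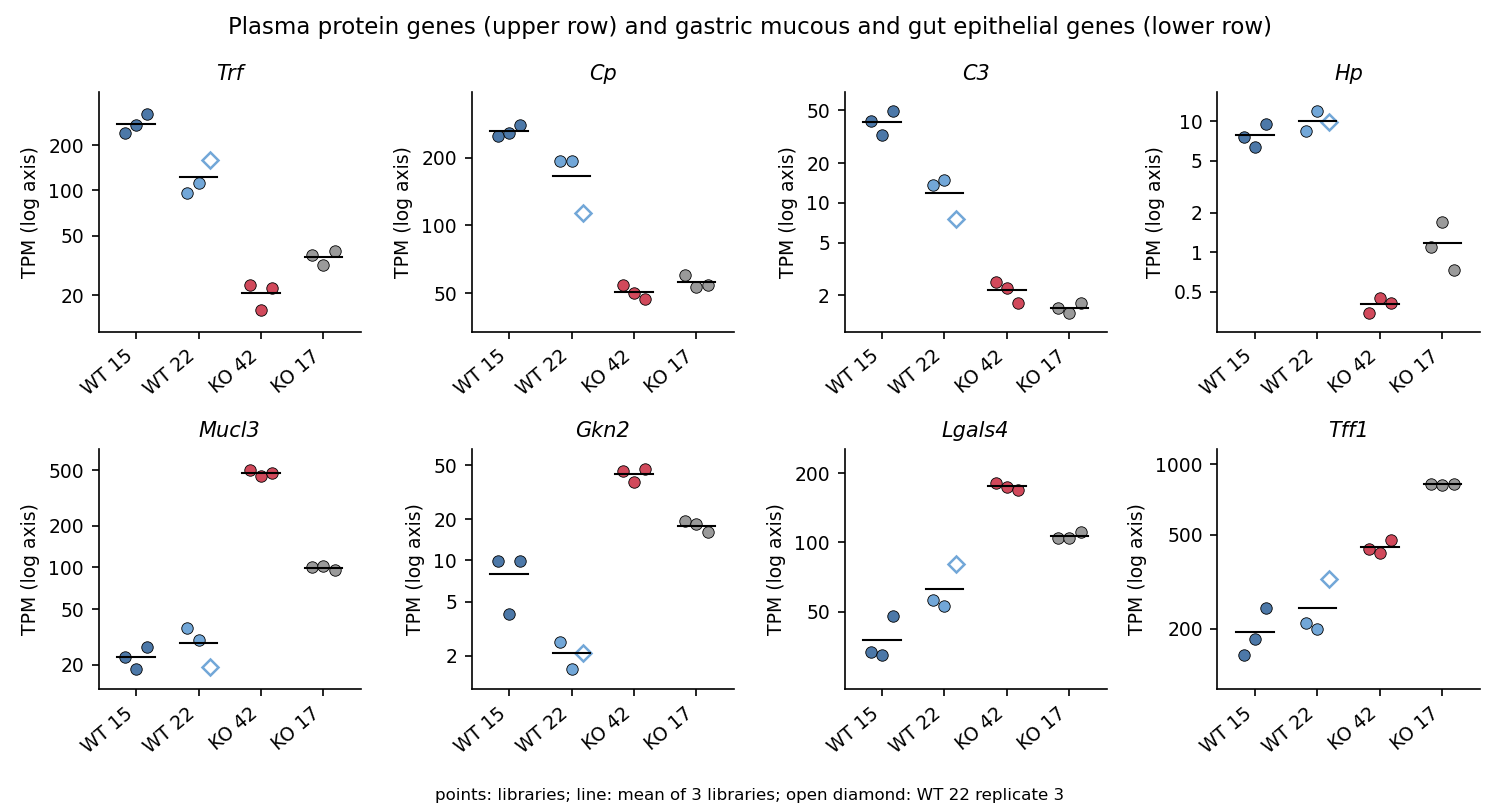
Levels in TPM on a log axis of 4 plasma protein genes (Trf, Cp, C3, Hp) and 4 genes of the mucous and classical lists (Mucl3, Gkn2, Lgals4, Tff1) in 4 clones of line 2838, where points are libraries, lines are means and the open diamond is replicate 3 of wild-type clone 22. Clone 42 lies below both wild-type clones in the first 4 genes and above both in the other 4.

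Keratins and envelope proteins of stratified epithelium also rose in part. Of 6 basal-like genes tested 2 rose (Krt14, Sprr1a) and of 9 cornified envelope genes 3 rose (Sprr2a2, Sprr1a, Ivl), with 0 falling in either list, beside 1.87% of all genes higher. The counts were 1 and 2 with median-of-ratios scaling, 1 and 1 after centring each chromosome, and 3 and 4 without replicate 3 of clone 22. Without that library 5.87% of all genes were higher. Krt14, a basal keratin (chromosome 11, 100203162 to 100207548, minus strand), was at 1.13, 1.23 and 2.57 TPM in clone 15, 7.46, 5.23 and 6.38 in clone 22 and 29.8, 30.9 and 33.8 in clone 42. Krt14 rose with log2 differences of 3.66 and 2.15 (SE 0.24, limma adjusted p = 7.76e-05 and 0.00151), and clone 22 lay above clone 15. Sprr1a, an envelope precursor, was at 245, 142 and 190.1 TPM in clone 15, 158, 146 and 156 in clone 22 and 361, 324 and 313 in clone 42, and Sprr1a rose with log2 differences of 0.82 and 1.11 (SE 0.18, limma adjusted p = 0.0273 and 0.00891). That call was lost without replicate 2 or 3 of wild-type clone 15 or without any 1 library of clone 42 (larger adjusted p up to 0.128). Sprr2a2, which shares sequence with close family copies and is uncertain for that reason, rose with log2 differences of 2.09 and 2.47. Ivl, involucrin, had mean levels of 0.445 TPM in clone 15, 0.307 in clone 22 and 1.7999 in clone 42, near the lower limit of the table, and its call was lost without replicate 2 or 3 of wild-type clone 15 or without replicate 2 of wild-type clone 22 (larger adjusted p up to 0.108).

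In the list of 25 epithelial genes, 1 rose and 0 fell, beside 1.87% of all genes in each direction. Without replicate 3 of clone 22, 4 rose, beside 5.87% of all genes. The gene was Krt7, a keratin of ducts (chromosome 15, 101411043 to 101430313, plus strand). It was at 172, 180.2 and 219 TPM in clone 15, 291, 266 and 255 in clone 22 and 547, 550.4 and 531 in clone 42. Krt7 rose with log2 differences of 1.51 and 1.003 (SE 0.12, limma adjusted p = 0.000227 and 0.00218). The main keratins did not follow it, since Krt8 had mean levels of 1589 TPM in clone 15, 1838 in clone 22 and 1871 in clone 42 and Krt18 had mean levels of 1738 TPM in clone 15, 2149 in clone 22 and 1941 in clone 42. Krt19, also a ductal keratin, had mean levels of 751 TPM in clone 15, 947 in clone 22 and 1153 in clone 42, with log2 differences of 0.62 and 0.31 (SE 0.16, limma adjusted p = 0.046 and 0.298). Without replicate 3 of clone 22 Krt19 was called higher, with log2 differences of 0.62 and 0.49 (limma adjusted p = 0.000657 and 0.00506). Cdh1, E-cadherin, had mean levels of 374 TPM in clone 15, 445 in clone 22 and 389 in clone 42, so that clone 42 lay between the wild-type clones.

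Of 12 mesenchymal genes tested 2 fell and 0 rose, beside 1.87% of all genes in each direction, and 1 fell with median-of-ratios scaling and after centring each chromosome. On omitting replicate 3 of clone 22, 4 fell and 1 rose, beside 5.87% of all genes higher and 9.46% lower. Fn1, fibronectin (chromosome 1, 71585520 to 71653200, minus strand), was at 201, 178 and 199.9 TPM in clone 15, 117, 118 and 54.5 in clone 22 and 21.6, 18.7 and 12.03 in clone 42. Fn1 fell with log2 differences of -3.43 and -2.36 (SE 0.31, limma adjusted p = 0.000388 and 0.00308), and the clone labelled knockout 17 was also below all wild-type libraries, at 29.1, 27.3 and 32.8 TPM. Spp1, osteopontin, was at 4502, 3293 and 3325 TPM in clone 15, 3741, 3889 and 2877 in clone 22 and 2184, 2186 and 2091 in clone 42. Spp1 fell with log2 differences of -0.77 and -0.69 (SE 0.16, limma adjusted p = 0.0228 and 0.0421), and the call was lost without any 1 library of wild-type clone 15, without replicate 1 or 2 of wild-type clone 22 or without any 1 library of clone 42 (larger adjusted p up to 0.17). Vim, vimentin, had mean levels of 1764 TPM in clone 15, 2140.03 in clone 22 and 1702 in clone 42, with log2 differences of -0.055 and -0.33 (SE 0.13, limma adjusted p = 0.88 and 0.189). Cdh2, N-cadherin, had mean levels of 32.5 TPM in clone 15, 34.04 in clone 22 and 38.3 in clone 42, with log2 differences of 0.23 and 0.26. Fn1 thus fell while Vim and Cdh2 gave no call.

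Among 5 transcription factors of epithelial-mesenchymal transition above the filter 0 passed the limma test against both clones and 1 was lower at an unadjusted p under 0.05, while 2 fell without replicate 3 of clone 22 and 1 fell under each of the other scalings. As background for each list of this paragraph, 1.87% of all genes passed the limma test in each direction. Without replicate 3 of clone 22, 5.87% rose and 9.46% fell. At the unadjusted p against both clones, 736 of all 11640 genes were higher and 598 lower. Zeb1 had mean levels of 16.8 TPM in clone 15, 12.7 in clone 22 and 15.7 in clone 42, and Zeb2 had mean levels of 3.56 TPM in clone 15, 2.15 in clone 22 and 1.12 in clone 42. Snai2 had mean levels of 10.1 TPM in clone 15, 7.4001 in clone 22 and 4.35 in clone 42, with log2 differences of -1.02 and -0.62 (SE 0.26, limma adjusted p = 0.0432 and 0.206), and was called lower without replicate 3 of clone 22. Snai1 and Twist1 were below the filter, Twist1 being listed at 0. Of 18 collagen and matrix genes 0 passed the limma test with all libraries and 2 were lower at an unadjusted p under 0.05, while 6 fell without replicate 3 of clone 22, a library that holds less of long transcripts. Of 17 integrins and laminins 1 fell, Itgb5, with mean levels of 106 TPM in clone 15, 133 in clone 22 and 76.1 in clone 42. Itgb5 fell with log2 differences of -0.46 and -0.79, and the call was lost without replicate 2 or 3 of wild-type clone 15, without replicate 1 or 2 of wild-type clone 22 or without any 1 library of clone 42 (larger adjusted p up to 0.17). With replicate 3 of clone 22 left out, 7 of the 17 fell and 1 rose, while with median-of-ratios scaling 0 fell and 1 rose and after centring each chromosome 0 fell and 2 rose. Of 18 proteases and inhibitors 1 fell, Mmp10, whose call was lost without replicate 1 or 2 of wild-type clone 22 or without any 1 library of clone 42 (larger adjusted p up to 0.109). Of these 18, 4 fell and 1 rose without replicate 3 of clone 22, and 3 or 4 fell under the other scalings.

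The Wnt ligand genes Wnt4, Wnt7a and Wnt7b rose, and the receptor gene Fzd2 and the TCF factor gene Tcf7 fell. Wnt ligands bind Frizzled receptors, and in the canonical branch beta-catenin then acts with TCF factors in the nucleus. Of 17 genes tested, 3 rose and 2 fell, beside 1.87% of all genes in each direction, with 4 and 2 under the other scalings. Without replicate 3 of clone 22, 4 rose and 3 fell, beside 5.87% of all genes higher and 9.46% lower. Wnt4 (chromosome 4, 137277489 to 137299726, plus strand) was at 2.78, 1.98 and 2.404 TPM in clone 15, 1.14, 1.19 and 1.14 in clone 22 and 14.4, 13.9 and 13.9 in clone 42. Wnt4 rose with log2 differences of 2.16 and 2.802 (SE 0.17, limma adjusted p = 0.000227 and 4.77e-05). Wnt7a was at 11.3, 15.995 and 18.3 TPM in clone 15, 23.6, 24.3 and 20.2 in clone 22 and 60.98, 67.9 and 65.5 in clone 42, and Wnt7a rose with log2 differences of 2.04 and 1.47 (SE 0.19, limma adjusted p = 0.000392 and 0.00262). Its close relative Wnt7b was at 0.399, 0.652 and 0.491 TPM in clone 15, 0.214, 0.325 and 0.148 in clone 22 and 3.24, 3.58 and 2.94 in clone 42, and Wnt7b rose with log2 differences of 1.49 and 1.79 (SE 0.17, limma adjusted p = 0.00113 and 0.000696). The 3 ligands showed no overlap between groups, and the clone labelled knockout 17 was near the wild-type clones in Wnt4 at 2.27, 2.36 and 2.73 TPM and in Wnt7b at 0.426, 0.217 and 0.299 TPM. The receptor Fzd2 was at 10.5, 9.28 and 9.07 TPM in clone 15, 6.63, 7.29 and 5.87 in clone 22 and 2.51, 2.72 and 3.01 in clone 42. Fzd2 fell with log2 differences of -1.502 and -1.02 (SE 0.17, limma adjusted p = 0.00112 and 0.0107). Tcf7, the TCF factor, had mean levels of 6.38 TPM in clone 15, 5.79 in clone 22 and 2.099 in clone 42 and fell with log2 differences of -1.25 and -1.13. The Fzd2 call was lost without any 1 library of clone 42 (larger adjusted p up to 0.0744). The Tcf7 call was lost without replicate 1 or 2 of wild-type clone 22 or without replicate 1 or 3 of clone 42 (larger adjusted p up to 0.101).

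Other large rises came from genes with no list in common. Klf1, a transcription factor of red cell precursors (chromosome 8, 84901928 to 84905291, plus strand), was at 0.324, 0.64996 and 0.388 TPM in clone 15, 0.325, 0.209 and 0.267 in clone 22 and 12.3, 12.7 and 11.2 in clone 42. Klf1 rose with log2 differences of 3.17 and 3.36 (SE 0.18, limma adjusted p = 3.24e-05 and 2.72e-05), and the clone labelled knockout 17 was at 0.0925, 0.243 and 0.133 TPM, within or below the wild-type range. Serpinb9b, a serpin related to the inhibitor of granzyme B, was at 17.5, 18.5 and 20.995 TPM in clone 15, 11.7, 13.02 and 7.11 in clone 22 and 124, 124 and 126 in clone 42. Serpinb9b rose with log2 differences of 2.66 and 3.47 (SE 0.21, limma adjusted p = 0.000212 and 4.64e-05). The proliferin gene Prl2c2 was at 149, 74.98 and 105 TPM in clone 15, 140.1, 102 and 131 in clone 22 and 492, 424 and 499 in clone 42. Its copy Prl2c3 was at 9.02, 9.85 and 12.1 TPM in clone 15, 12.5, 6.77 and 5.81 in clone 22 and 75.1, 61.5 and 71.996 in clone 42. Both were called higher, and the split of reads between such near-identical copies is uncertain. The clone labelled knockout 17 was also high in both, with Prl2c2 at 436, 455 and 514 TPM.

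Dok2, an adaptor below tyrosine kinases, had mean levels of 5.73 TPM in clone 15, 6.47 in clone 22 and 44.1 in clone 42 and rose with log2 differences of 2.79 and 2.63. Mcpt2, a mast cell protease, had mean levels of 1.27 TPM in clone 15, 0.918 in clone 22 and 12.5 in clone 42 and rose with log2 differences of 2.59 and 2.82, beside 8 of 15 immune markers at 0. Tesc, a calcium-binding EF-hand protein, had mean levels of 2.22 TPM in clone 15, 3.28 in clone 22 and 16.95 in clone 42 and rose with log2 differences of 2.49 and 2.19. Fgfbp1, a carrier of fibroblast growth factors, had mean levels of 7.48 TPM in clone 15, 3.83 in clone 22 and 36.3 in clone 42 and rose with log2 differences of 2.17 and 2.96. Msln, mesothelin, a surface glycoprotein of pancreatic tumours that was chosen after its values were seen, was at 357, 512 and 424 TPM in clone 15, 466, 522 and 351 in clone 22 and 1439.8, 1347 and 1829 in clone 42. Msln rose with log2 differences of 1.84 and 1.79 (SE 0.20, limma adjusted p = 0.000742 and 0.00145), and the clone labelled knockout 17 was at 532, 538 and 495 TPM, inside or just above the wild-type range. The calls of these 5 genes held without any 1 library.

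Annexins bind membranes in a calcium-dependent way. Of 12 tested, 2 rose and 1 fell, beside 1.87% of all genes in each direction, and 1 rose and 1 fell after centring each chromosome. On omitting replicate 3 of clone 22, 4 rose and 2 fell, beside 5.87% of all genes higher and 9.46% lower. Anxa6 was at 43.2, 55.5 and 54.7 TPM in clone 15, 55.2, 59.9 and 43.4 in clone 22 and 12.5, 15.9 and 13.7 in clone 42. Anxa6 fell with log2 differences of -1.79 and -1.84 (SE 0.18, limma adjusted p = 0.000568 and 0.0007), and the clone labelled knockout 17 was as low, at 14.7, 16.9 and 14.9 TPM. Anxa11 had mean levels of 91.5 TPM in clone 15, 86.02 in clone 22 and 177 in clone 42. Anxa11 rose with log2 differences of 0.96 and 1.05, a call lost without replicate 1 or 2 of wild-type clone 15 or without any 1 library of clone 42 (larger adjusted p up to 0.105). Anxa13 had mean levels of 248 TPM in clone 15, 191 in clone 22 and 380.2 in clone 42. Anxa13 rose with log2 differences of 0.62 and 0.99, a call lost without replicate 1 of clone 42 (larger adjusted p up to 0.0514). In the MHC class I list of 9 genes 3 rose without replicate 3 of clone 22, and with all libraries 1 rose, H2-D1 (chromosome 17, 35262730 to 35267499, plus strand), a member of a family of similar genes. It was at 129, 161 and 152 TPM in clone 15, 118, 127 and 121 in clone 22 and 292, 295 and 299 in clone 42. H2-D1 rose with log2 differences of 1.003 and 1.27 (SE 0.12, limma adjusted p = 0.00112 and 0.000494). H2-K1 had mean levels of 201 TPM in clone 15, 144 in clone 22 and 315 in clone 42, and their common light chain B2m had mean levels of 666 TPM in clone 15, 582 in clone 22 and 467 in clone 42, neither of them called.

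Calls in energy metabolism differed between its lists. Of 28 genes of the citric acid cycle and pyruvate dehydrogenase 0 passed the limma test against both clones and 2 were higher at an unadjusted p under 0.05, while 2 rose and 2 fell without replicate 3 of clone 22. Over all 11640 genes, 736 were higher and 598 lower at that unadjusted p against both clones. Without replicate 3 of clone 22, 5.87% of all genes rose and 9.46% fell. Of 13 mitochondrially encoded genes 0 passed the limma test in either set of libraries, and 0 were at an unadjusted p under 0.05 against both clones. Of 76 nuclear genes of oxidative phosphorylation 1 fell, Atp5c1, a subunit of the ATP synthase. It had mean levels of 335 TPM in clone 15, 319 in clone 22 and 231 in clone 42, and its call was lost without replicate 2 or 3 of wild-type clone 15, without replicate 1 or 2 of wild-type clone 22 or without any 1 library of clone 42 (larger adjusted p up to 0.193). With replicate 3 of clone 22 left out, 3 of the 76 rose and 2 fell, beside 5.87% of all genes higher and 9.46% lower. The 76 genes had median log2 differences of 0.20 and -0.086. Of 31 genes of glycolysis and hypoxia 3 fell and 1 rose, beside 1.87% of all genes in each direction, with 5 and 1 under each of median-of-ratios scaling, quantile normalization and the omission of replicate 3 of clone 22. Pfkp, a phosphofructokinase, was at 5.54, 7.76 and 8.37 TPM in clone 15, 2.73, 5.28 and 4.27 in clone 22 and 0.515, 0.892 and 0.474 in clone 42. Pfkp fell with log2 differences of -2.33 and -1.62 (SE 0.25, limma adjusted p = 0.000792 and 0.00663), and the clone labelled knockout 17 stood on the other side at 24.4, 30.7 and 25.4 TPM. Egln3, an oxygen-sensing prolyl hydroxylase, had mean levels of 13.6 TPM in clone 15, 10.1 in clone 22 and 34.4 in clone 42, and Egln3 rose with log2 differences of 1.28 and 1.697 (SE 0.20, limma adjusted p = 0.00442 and 0.00175). The lactate carrier Slc16a3 had mean levels of 24.1 TPM in clone 15, 4.76 in clone 22 and 1.28 in clone 42, a call lost without replicate 3 of wild-type clone 15, without replicate 1 or 2 of wild-type clone 22 or without replicate 2 or 3 of clone 42 (larger adjusted p up to 0.128). The aldolase Aldoc had mean levels of 37.6 TPM in clone 15, 18.3 in clone 22 and 10.2 in clone 42, a call lost without replicate 2 or 3 of wild-type clone 15, without replicate 1 or 2 of wild-type clone 22 or without any 1 library of clone 42 (larger adjusted p up to 0.171). Clone 15 had the highest mean in both. Gapdh and Pkm, the most abundant genes of the list, were not called.

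Cell cycle genes lay above the wild-type clones on average. The 39 S phase genes had median log2 differences of 0.51 and 0.54. Of them 37 and 35 were above 0, beside 5828 and 7452 of all 11640 genes. Of these, 2 rose and 0 fell, beside 1.87% of all genes in each direction. Without replicate 3 of clone 22, 9 rose and 1 fell, beside 5.87% of all genes higher and 9.46% lower. Uhrf1, which maintains DNA methylation at replication, was at 61.7, 46.3 and 69.4 TPM in clone 15, 78.8, 65.2 and 41.5 in clone 22 and 130.1, 133 and 121 in clone 42. Uhrf1 rose with log2 differences of 1.12 and 1.09 (SE 0.24, limma adjusted p = 0.0209 and 0.0288), and the call was lost without replicate 1 or 2 of wild-type clone 15, without replicate 2 of wild-type clone 22 or without any 1 library of clone 42 (larger adjusted p up to 0.128). The 39 genes of G2 and M phase had medians of 0.55 and 0.41, with 1 rising and 0 falling. At an unadjusted p under 0.05 against both clones, 14 S phase genes and 10 of G2 and M phase were higher and 0 lower. Over all 11640 genes, 736 were higher and 598 lower at that unadjusted p. Against clone 22 the medians of the 2 lists were 0.35 and 0.16 without its replicate 3 and 0.38 and 0.24 with median-of-ratios scaling. The riser of G2 and M phase was the mitotic kinase gene Aurkb, with mean levels of 30.2 TPM in clone 15, 33.5 in clone 22 and 60.7 in clone 42 and a call lost without replicate 2 or 3 of wild-type clone 15, without replicate 2 of wild-type clone 22 or without any 1 library of clone 42 (larger adjusted p up to 0.156). The Uhrf1 call was also lost after centring each chromosome, and the Aurkb call after centring and with median-of-ratios scaling. Against the clone labelled knockout 17, 25 of the 39 S phase genes and 12 of the 39 G2 and M phase genes were higher in clone 42 and 0 lower, beside 8.23% of all genes.

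Of 33 lysosome and autophagy genes 3 fell and 0 rose, beside 1.87% of all genes in each direction. On omitting replicate 3 of clone 22, 8 fell and 1 rose, beside 5.87% of all genes higher and 9.46% lower. The first was Map1lc3a. Its relative Map1lc3b had mean levels of 206 TPM in clone 15, 229 in clone 22 and 139.5 in clone 42. Map1lc3b fell with log2 differences of -0.56 and -0.71, a call lost without replicate 2 of wild-type clone 15 or without any 1 library of clone 42 (larger adjusted p up to 0.094). Grn, progranulin, had mean levels of 149.8 TPM in clone 15, 126 in clone 22 and 87.1 in clone 42. Grn fell with log2 differences of -0.77 and -0.53, a call lost without replicate 2 or 3 of wild-type clone 15, without replicate 1 or 2 of wild-type clone 22 or without any 1 library of clone 42 (larger adjusted p up to 0.21). Of 27 p53 targets 2 fell, Gdf15 and Gadd45a, and without replicate 3 of clone 22 3 fell and 4 rose. Gadd45a, a growth arrest gene, was at 34.5, 58.3 and 34.2 TPM in clone 15, 33.6, 46.8 and 37.7 in clone 22 and 16.1, 21.7 and 18.5 in clone 42. Gadd45a fell with log2 differences of -1.099 and -1.03 (SE 0.24, limma adjusted p = 0.0233 and 0.0364), and the call was lost without replicate 2 or 3 of wild-type clone 15, without replicate 1 or 2 of wild-type clone 22 or without any 1 library of clone 42 (larger adjusted p up to 0.165). Of 23 genes of the TGF-beta and BMP pathways 1 rose, the transcriptional inhibitor Id2, and 1 fell, Ltbp4, a binding protein of latent TGF-beta. With replicate 3 of clone 22 left out, 2 of the 23 rose and 7 fell. Id2 had mean levels of 402 TPM in clone 15, 313 in clone 22 and 613 in clone 42. Id2 rose with log2 differences of 0.62 and 0.98, a call lost without replicate 2 or 3 of wild-type clone 15, without replicate 2 of wild-type clone 22 or without any 1 library of clone 42 (larger adjusted p up to 0.146). Ltbp4 had mean levels of 9.04 TPM in clone 15, 11.6 in clone 22 and 2.79 in clone 42. Ltbp4 fell with log2 differences of -1.38 and -1.74, a call that held without any 1 library. Lists of interferon response (13 genes), Notch (11), actin and SRF targets (18), S100 proteins (10) and mitochondrial dynamics (18) held 0 genes called against both clones by limma. At an unadjusted p under 0.05 against each clone they held 2, 1, 2, 0 and 1 genes in that order, and without replicate 3 of clone 22 the limma calls were 3, 2, 4, 0 and 1. Over all 11640 genes, 736 were higher and 598 lower at that unadjusted p.

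Other lists gave 1 or 2 calls each, beside 1.87% of all genes in each direction. Of 18 chemokine and cytokine genes 2 rose, Il1a and Ccl20. Il1a, an inflammatory interleukin, was at 1.904, 0.562 and 0.546 TPM in clone 15, 0.431, 0.394 and 0.238 in clone 22 and 3.84, 3.94 and 4.31 in clone 42. Il1a rose with log2 differences of 1.39 and 1.895 (SE 0.26, limma adjusted p = 0.0115 and 0.00349), and the call was lost without replicate 2 or 3 of wild-type clone 15 or without any 1 library of clone 42 (larger adjusted p up to 0.0623). Ccl20, a chemokine for lymphocytes and dendritic cells, had mean levels of 107 TPM in clone 15, 109 in clone 22 and 159 in clone 42 and a call lost without any 1 library of wild-type clone 15, without replicate 1 of wild-type clone 22 or without any 1 library of clone 42 (larger adjusted p up to 0.175). Of 19 genes of the EGF family and its targets 1 rose, Dusp5, a phosphatase of ERK, with mean levels of 22.2 TPM in clone 15, 22.9 in clone 22 and 34.2 in clone 42 and a call lost without any 1 library of wild-type clone 15, without replicate 1 or 2 of wild-type clone 22 or without any 1 library of clone 42 (larger adjusted p up to 0.207). Of 28 genes of the NRF2 response 1 rose, the glutathione transferase Gsta1, with mean levels of 210.3 TPM in clone 15, 253 in clone 22 and 417 in clone 42 and a call lost without replicate 3 of wild-type clone 15, without replicate 1 or 2 of wild-type clone 22 or without any 1 library of clone 42 (larger adjusted p up to 0.164). In the sterol and fatty acid list of 35 genes 1 fell, Mvd, an enzyme of the mevalonate pathway, with mean levels of 112 TPM in clone 15, 146 in clone 22 and 79.9 in clone 42 and a call lost without replicate 2 or 3 of wild-type clone 15, without replicate 1 or 2 of wild-type clone 22 or without any 1 library of clone 42 (larger adjusted p up to 0.196). The calls of Ccl20, Dusp5, Gsta1 and Mvd were also lost with median-of-ratios scaling and after centring each chromosome. With median-of-ratios scaling 0 of the 28 NRF2 genes rose and 1 fell. Of 24 YAP targets 1 fell, Igfbp3, described above, and with median-of-ratios scaling or quantile normalization 2 rose and 2 fell. Without replicate 3 of clone 22 the genes that rose and fell were 3 and 2 of the chemokine list, 4 and 2 of the EGF list, 5 and 3 of the NRF2 list, 3 and 4 of the sterol list and 2 and 5 of the YAP list, beside 5.87% of all genes higher and 9.46% lower.

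Differences of clone 42 were unequal across chromosomes. On chromosome 2, 50 of 935 genes fell and 6 rose. The median log2 difference was -0.33 against clone 15, -0.18 against clone 22 and -0.41 against clone 22 without its replicate 3. It was below 0 in every 20-Mb stretch of the chromosome against clone 15. On chromosome 17, 34 of 585 genes rose and 7 fell, with medians of 0.34, 0.41 and 0.26. Against clone 15 the median was 0.39 and 0.49 in the stretches from 20 to 60 Mb and 0.059 and 0.037 in those from 60 to 100 Mb. Against clone 22 it was 0.47, 0.43, 0.33 and 0.39 in the same stretches, and 0.33, 0.31, -0.0075 and 0.099 without replicate 3 of clone 22. On chromosome 8, 19 of 645 genes fell and 3 rose, with medians of -0.15, -0.18 and -0.38. On chromosome 9, 20 of 651 genes fell and 4 rose, with medians of -0.18, 0.025 and -0.20. On chromosome 14, 15 of 382 genes rose and 4 fell, with medians of 0.20, 0.38 and 0.12. On chromosome 15 the median against clone 15 was -0.19. It was 0.15, 0.11 and 0.28 in the first 3 stretches of 20 Mb and -0.29, -0.27 and -0.21 in those from 60 Mb on. After each chromosome was centred on its median, chromosome 2 held 29 lower and 11 higher genes and chromosome 17 held 12 higher and 21 lower. Chromosome 9 then held 20 lower and 7 higher genes, and chromosome 14 held 2 higher and 10 lower. Of the 218 higher genes 117 kept their call under centring, and of the 218 lower genes 146. Among genes described above, Trib3, Chac1 and Map1lc3a lie on chromosome 2, and Mucl3, H2-D1, Cldn6 and C3 on chromosome 17, where Cldn6 and C3 fell against the shift. Gdf15, Hp, Aars and Klf1 lie on chromosome 8, where Klf1 rose against the shift. Trf lies on chromosome 9, and Dok2 and Mcpt2 lie on chromosome 14. Atf4 and Krt7 lie on chromosome 15 past 60 Mb, where Krt7 rose against the shift. Phgdh, Cth and Sprr2a2 lie on chromosome 3, with medians of -0.20, -0.031 and -0.26, and there Sprr2a2 rose against the shift. DNA copy number was not analysed here, and the part of such shifts in single genes was not tested.

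**Figure D5:**
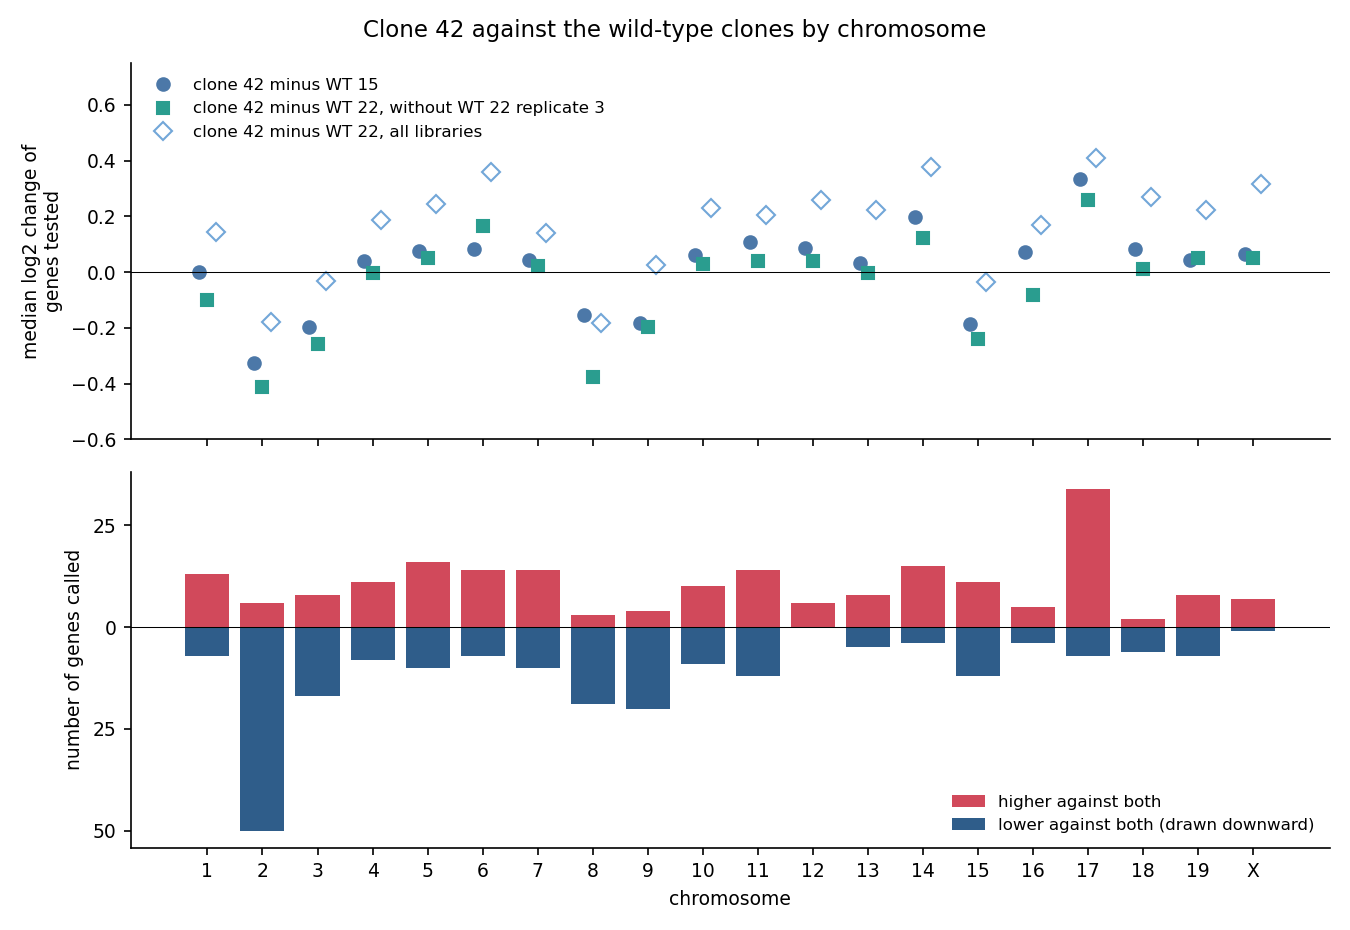
The upper panel gives the median log2 difference of clone 42 by chromosome, against wild-type clone 15, against wild-type clone 22, and against clone 22 without replicate 3. The lower panel gives the number of genes higher (bars up) and lower (bars down) than both wild-type clones, with 50 lower on chromosome 2 and 34 higher on chromosome 17.

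Promoters of the higher and lower genes were searched for 8 further motifs on either strand in the same window. The AP-1 letters TGANTCA occur in 4.79% of the 9087 promoters, in 17 of 165 of the higher genes (10.3%) and in 5.95% of the lower genes. The E-box CACCTG, which ZEB and Snail factors can bind, occurs in 17.0% of all, 24.2% of the higher and 22.6% of the lower genes. The TEAD letters CATTCC occur in 11.8%, 14.5% and 17.9%, and the GATA letters AGATAA in 6.06%, 10.9% and 8.33%. The C/EBP letters TTGCNNAA, which can overlap the C/EBP-ATF letters in part, occur in 7.99%, 11.5% and 10.1%. The FOXA letters TGTTTAC occur in 2.47%, 2.42% and 2.98%, and the CREB letters TGACGTCA in 3.44%, 4.85% and 1.79%. The HNF1 letters searched occur in 0 of the 9087 promoters. These shares describe letters in a window and do not show binding.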

How the data were processed

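PolyA RNA of 9 libraries from 3 clones of line 2838 was compared, with clone 17 beside them. The authors deposited a table of TPM values. The submitters' processing notes name Salmon, DESeq2 and the mm10 build. Versions and the annotation are not given in the sources used here. TPM fixes each library's total, so a change in abundant genes shifts all others, and it holds no depth, so no counting interval was given. Groups and replicate numbers came from the sample titles. A second library name in the labels repeats 1 number for all 3 libraries of a clone, so the name that matches the table's column was used. As deposited, 0 pairs of libraries were identical.

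From these values, limma 3.58.1 (R 4.3.3) fitted log2(TPM + 1), using a term per clone, a variance trend and Benjamini-Hochberg adjustment over all 11640 genes tested. Calls needed an adjusted p under 0.05. The pseudocount of 1 understates changes of low genes. Clone 42 was set against clone 17 in a fit of 12 libraries. On simulated data the rule for both clones recovered 1 of 50 genes at a log2 change of 0.5 and 23 of 50 at 1. It recovered 39 at 2 and 49 at 4, with 3 false among 115 calls. Lists with 0 calls can thus hold small changes that were missed. Recovery was taken by size of change only and was not split by gene level. How far these rates hold for genes near the filter, or for the deposited libraries, was not tested.

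The comparison, its gene lists and its motifs were chosen with earlier results of these data known. The text could name by rule the top 15 genes in each direction, ranked by the smaller log2 change, whose higher arm averaged 5 TPM or more, whose clone 42 libraries lay apart from all 6 wild-type ones and whose symbol is no predicted name. It could also name the uniporter complex, a fixed set of epithelial and mesenchymal markers, and of each list up to 4 called genes and the 2 most abundant uncalled ones. Atf4, Chac1, Phgdh, Asns, Slc7a11, Aars, Cp, Gc, Cfi, Cd55, Tspan8, Fzd2 and Msln were named after their values were seen. GENCODE M21 (mm10) gave positions and transcript lengths for 11408 of the genes by their symbol, and RefSeq (GRCm38.p6) gave promoters. Figures were drawn with matplotlib 3.10.9. Alternatives were other pseudocounts, filters, scalings and sets of libraries, a replicate block, and each library left out. List counts without replicate 3 of clone 22 and under other scalings were added after the data were seen. Some items, single genes of the lists among them, are not reported here.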

Additional observations from a re-analysis of the deposited data

Results flagged for a closer look

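Among the 436 called genes, 62 had clone 42 and the clone labelled knockout 17 on opposite sides of all 6 wild-type libraries, with a limma adjusted p under 0.05 for the difference between these clones. In all 436 clone 42 already lay outside the wild-type range. The same share was not taken over all genes tested, so 62 is not read as many or few. Of the genes named by rule, 8 such genes were lower in clone 42. The difference of clone 42 from the other clone was -3.27 for Mcu, -3.36 for Cth, -3.17 for Trib3, -2.87 for Ddit3, -2.54 for Gdf15, -2.37 for Gadd45a, -4.10 for Pfkp and -3.24 for Eif4e3 on the log2 scale. Higher in clone 42 were Uhrf1, with a difference of 1.92, and Id2, with 1.36. Both clones carry the knockout label and each is 1 clone, so these values set 2 clones apart and not 2 genotypes.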

How the results depend on the processing

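The count of 436 genes called against both wild-type clones moved by more than 1.5 times to 266 with a mean of at least 5 TPM, 804 after quantile normalization, 241 with a minimum log2 change of 1, 727 in the fit of 12 libraries, 260 with only the 6 libraries of each pair of clones, and 122 to 1778 with 1 library left out. Against clone 15 the 861 calls became 512, 1484, 489, 1450 and 2860 in that order, with 337 to 3476 on leaving out 1 library. Against clone 22 the 694 became 431, 1293, 391, 1217 and 308, with 188 to 2476. Between the wild-type clones the 85 became 46 with a pseudocount of 0.1, 26 with a mean of at least 5 TPM, 131 after quantile normalization, 226 in the fit of 12 libraries and 1 with 6 libraries, and 2 to 289 on leaving out 1 library. For clone 42 against the clone labelled knockout 17 the 2031 became 687 with the minimum change, with 1161 to 4887 on leaving out 1 library. The cause of these moves was not tested, apart from fewer genes or libraries entering where the setting itself removes them. With the clone as the unit, 398 genes were called on 1 residual degree of freedom, a fit in which the spread of single genes is not estimated.

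Same-numbered libraries of different clones were not treated as paired. The correlations of their deviations ran from -0.138 to 0.204 over 9 pairs, against -0.201 to 0.14 over 18 other pairs, and 1 of 9 libraries correlated best with its own number. Of the 9 same-numbered pairs 4 had a correlation over 0.1. In Trib3, Chac1 and Cth replicate 2 was the highest library of every clone, so single genes can share an order of replicates. With a replicate block the counts were 261 against both clones, 379 against clone 22 and 4 between the wild-type clones, and 595 and 1825 in the other 2 comparisons.

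Of the 72 genes named by rule and called against both clones, 41 kept the call in every alternative run other than the minimum change, and so did 3 of 10 called genes named after their values were seen. In 0 cases was a direction reversed. Depth is unknown, so levels near 0 TPM cannot be told from absence.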
